A study of Mus musculus with 24 samples.

Results

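Genes of fat cell formation and lipid storage were followed in NIH 3T3, a mouse fibroblast line that came from embryos and grows without limit. The members were Fabp4, Fabp5, Pparg, Cebpa, Cebpb, Cebpd, Cd36, Lpl, Plin2 and Klf4, that is 10 of the 39017 Ensembl gene identifiers in the count tables. The set was selected on the readout itself. Fabp4 had already been seen to lie below the empty vector in cells with the TAZ-CAMTA1 fusion and above it in cells with TAZ4SA, so for these 10 genes the values from TAZ-CAMTA1, TAZ4SA and their comparison are given as descriptions with no test. Of the 10 genes, 8 averaged 5 or more counts across the libraries and entered the statistics, and Cebpa and Cd36 did not.

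The 24 RNA-Seq libraries formed 8 groups of 3. Every library came from a pool of cells carrying a retroviral vector with a neomycin resistance gene, selected with G418 in medium with bovine calf serum, so the empty vector controls carried the vector too. Of the groups, 6 had been confluent for 48 h when collected: the empty vector (EV), TAZ4SA (TAZ with 4 serines phosphorylated by LATS kinases changed to alanine), TAZ-CAMTA1 (the fusion of epithelioid hemangioendothelioma), YAP5SA (YAP with 5 such serines changed), YAP-TFE3 (the alternative fusion of that sarcoma) and full-length TFE3. The remaining pair was collected before confluence, namely full-length CAMTA1 and its empty vector control (EVsub). No label or method names a hormone mixture for adipogenic differentiation, and the cells were cultured fibroblasts throughout. Library totals ran from 16471181 to 30132586 counts. Per the study's methods the 3 replicates of a group came from separate transductions, each followed by stable selection, so the spread between them is that between cell pools.

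Adipogenesis in cultured fibroblasts proceeds in waves. The transcription factors C/EBPβ and C/EBPδ come first, with KLF4 among the factors that act on the Cebpb gene, and they lead to PPARγ and C/EBPα, which keep each other expressed and switch on genes for fatty acid binding, uptake and storage. TAZ is also known as a protein that binds PPARγ and holds back its activity in mesenchymal cells.

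Of the late part of that cascade, Pparg, Cebpa and Cd36 were at or near the limit of detection in every group. Pparg (chromosome 6, 115360951-115490399 on the plus strand, mm10), the nuclear receptor that directs fat cell formation, had 147 counts in all 24 libraries together. It had 3, 0 and 3 counts in EV replicates 1 to 3, 17, 4 and 1 in TAZ4SA, and 7, 1 and 5 in TAZ-CAMTA1. In the other groups it had 3, 3 and 5 counts (YAP5SA), 9, 11 and 4 (YAP-TFE3), 4, 6 and 12 (TFE3), 6, 6 and 6 (EVsub) and 13, 8 and 10 (CAMTA1). All 3 EV libraries were at or under 3 counts, the limit that a count of 0 allows and 0.0927 to 0.225 CPM depending on the library (CPM, the usual library-normalized read count, divides a gene's reads by the scaled total of its library), so no fold against EV is given. Within TAZ4SA a single library held most of the reads. No test of Pparg passed in the 6 comparisons tested, with adjusted p-values of edgeR's quasi-likelihood test between 0.138 (YAP-TFE3 against EV) and 0.61 (CAMTA1 against EVsub).

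Cebpa (chromosome 7, 35119293-35121928, plus strand), which encodes the other late regulator C/EBPα, had 1 count in total, in YAP-TFE3 replicate 2, and 0 in the remaining 23 libraries. Cd36 (chromosome 5, 17781690-17888801, minus strand), which encodes a membrane protein that takes up long-chain fatty acids, had 7, 2 and 1 counts in YAP-TFE3, 1 count in TAZ4SA replicate 2 and 0 in 20 libraries. These values leave both genes below any comparison between groups at this depth. Pparg and Cebpa overlap antisense genes, and since the strand setting of the counting is not given in the sources used here, reads of those partners could be among their few counts.

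The cells were checked against marker lists. All 8 fibroblast markers, collagens and vimentin among them, were above 1 CPM in all 8 groups. The 10 markers of mature adipocytes summed to 0 to 3.49 CPM in any library, and Pck1 and Ucp1 were at 0 in all 24. Adipoq, which encodes adiponectin, had at most 4 counts in a library and Plin1 at most 3. Within that list Adrb3, the fat cell adrenergic receptor, had 26 to 42 counts in YAP5SA and 7 to 13 in TAZ4SA, and Lep, which encodes leptin, had 6 to 16 and 8 to 51, against 0 for both genes in every EV library. The lists of 2 other cell types moved with the constructs. The 8 macrophage markers summed to 6.42 to 8.21 CPM in EV, 21.5 to 73.1 in TAZ4SA, 87.4 to 137 in YAP5SA and 10.6 to 12.7 in TAZ-CAMTA1. The sum was 8.12 to 12.6 CPM in the other groups. In TAZ4SA and YAP5SA most of that sum was Cd68 (means 40.6 and 66.9 CPM) and Csf1r (means 5.41 and 40.0 CPM), while Adgre1 was at 0 in every library and Ptprc had at most 4 counts in any. The 7 endothelial markers summed to 3.01 to 4.9997 CPM in EV, 9.32 to 16.5 in TAZ4SA, 8.64 to 9.70 in YAP5SA, 8.41 to 13.5 in YAP-TFE3, 4.98 to 6.96 in TAZ-CAMTA1 and TFE3, and 0.819 to 2.02 in the sub-confluent groups. The part of such cells in the results below was not tested, and in bulk RNA fewer cells of a type and less RNA per cell cannot be told apart.

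A single control library stood apart. EV replicate 2 had the highest Fabp4, Fabp5, Cebpd, Lpl and Klf4 of the 3 EV libraries, and its Lpl level was 848 CPM against 173 and 251. Results that this library decides are given with and without it.

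The promoters of 3 members are shown because they cover an early factor, a storage gene and the receptor that stayed near 0. The RefSeq promoter table (build GRCm38.p6) held 8 stretches for 6 of the 10 genes. Fabp4, Fabp5, Lpl and Cebpd had no stretch there, so their promoters were not searched. Each sequence below is the 250 bases before a transcription start, written 5′ to 3′ on the gene's own strand, with matches to the searched letters in capitals. The letters were GGAATG (TEAD), CACGTG (E-box), TTGCNNAA (C/EBP) and TGANTCA (AP-1), on both strands, and no match overlapped another.
Klf4, chr4:55532476-55532725, minus strand: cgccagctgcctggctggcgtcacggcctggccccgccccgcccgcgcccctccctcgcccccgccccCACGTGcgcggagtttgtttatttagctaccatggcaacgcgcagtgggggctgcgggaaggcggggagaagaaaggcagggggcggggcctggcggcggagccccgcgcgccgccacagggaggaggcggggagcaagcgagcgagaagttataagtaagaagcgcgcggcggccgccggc
Plin2, chr4:86670060-86670309, minus strand: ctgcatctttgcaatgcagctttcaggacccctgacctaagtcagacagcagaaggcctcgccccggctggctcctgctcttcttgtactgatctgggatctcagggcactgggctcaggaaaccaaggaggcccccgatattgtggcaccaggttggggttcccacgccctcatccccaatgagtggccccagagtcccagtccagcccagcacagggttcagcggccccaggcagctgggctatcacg
Pparg, the most downstream of its 3 starts, chr6:115421816-115422065, plus strand: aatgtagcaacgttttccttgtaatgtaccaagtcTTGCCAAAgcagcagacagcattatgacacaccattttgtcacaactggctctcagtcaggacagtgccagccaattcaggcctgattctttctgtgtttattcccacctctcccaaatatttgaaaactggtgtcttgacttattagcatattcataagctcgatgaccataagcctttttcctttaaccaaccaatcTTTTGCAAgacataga
Klf4 held 1 E-box, 182 to 177 bases before the start, which 6.02% of the 32851 stretches of that length also held. The downstream Pparg stretch held 2 C/EBP matches, TTGCCAAA at 215 to 208 bases and TTTTGCAA at 16 to 9 bases before the start, and 9.56% of all stretches held at least 1. No other stretch of these genes matched, and the TEAD and AP-1 letters, found in 12.6% and 6.75% of all stretches, were in none of the 8. A match describes the letters only.

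Fabp4 (ENSMUSG00000062515, chromosome 3, 10204088-10208576, minus strand) encodes a cytosolic fatty acid carrier that is abundant in adipocytes. Its level was 0.34, 1.72 and 0.71 CPM in EV, 8.63, 6.75 and 7.61 CPM in TAZ4SA and 0.33, 0.33 and 0.08 CPM in TAZ-CAMTA1, the last from 8, 7 and 2 counts. All TAZ4SA libraries lay above all EV libraries, and all TAZ-CAMTA1 libraries lay below them, although the nearest TAZ-CAMTA1 and EV values were 0.326 and 0.338 CPM. The fitted log2 fold change against EV was 3.08 (SE 0.39) in TAZ4SA and -1.90 (SE 0.53) in TAZ-CAMTA1, and between them it was -4.97 (SE 0.46). Without EV replicate 2 the first became 3.87 and the second -1.10. These values chose the gene set and support nothing further.

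Among the groups that the choice did not rest on, Fabp4 was 0.62, 1.67 and 0.76 CPM in YAP5SA, 1.35, 1.00 and 1.02 CPM in YAP-TFE3 and 1.39, 1.69 and 1.67 CPM in TFE3. Each of these ranges overlapped that of EV. None of the 3 differences passed the test, with log2 fold changes of 0.18 (SE 0.44), 0.30 (SE 0.42) and 0.80 (SE 0.41) and adjusted p-values from edgeR of 0.722, 0.715 and 0.387. YAP-TFE3 against YAP5SA did not pass either (log2 fold change 0.12, SE 0.43, adjusted p = 0.818). The comparisons with EV, that of EVsub included, share the EV libraries with the comparisons that chose the set. The sub-confluent groups were higher, at 1.96, 2.88 and 2.20 CPM in EVsub and 2.74, 3.38 and 4.14 CPM in CAMTA1. Fabp4 rose in EVsub against EV with a log2 fold change of 1.37 (SE 0.40, edgeR adjusted p = 0.016), a call that was lost without EV replicate 1 (adjusted p = 0.0977), without EV replicate 3 (0.0785), without EVsub replicate 2 (0.0751) and when only those 2 groups were fitted (0.0947). Without EV replicate 2 it was larger (log2 fold change 2.17, adjusted p = 0.000768). CAMTA1 and EVsub overlapped (log2 fold change 0.54, SE 0.35, edgeR adjusted p = 0.418).

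In the order of means Fabp4 ran from TAZ4SA (7.66 ± 0.945 CPM, SD, n = 3) through CAMTA1, EVsub, TFE3, YAP-TFE3, YAP5SA and EV to TAZ-CAMTA1 (0.243 ± 0.141 CPM). Neighbours in this order overlapped for CAMTA1 and EVsub, YAP-TFE3 and YAP5SA, and YAP5SA and EV. Compared per kilobase of merged exon, Fabp4 was a minor message even at its highest, with 1.71 ± 0.210 RPKM in TAZ4SA against 138 ± 25.1 RPKM for Fabp5 in the same libraries. The merged exons span 4489 bases for Fabp4, its whole gene, and 3567 for Fabp5. RPKM by the length of a shorter spliced transcript would be higher.

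Fabp5 (ENSMUSG00000027533, chromosome 3, 10012548-10016607, plus strand), the epidermal fatty acid binding protein made by many cell types, lies in the same cluster. Its level was 62.4, 89.0 and 60.4 CPM in EV, 454, 594 and 428 CPM in TAZ4SA and 26.6, 24.6 and 15.8 CPM in TAZ-CAMTA1. The 3 groups did not overlap, TAZ4SA being highest and TAZ-CAMTA1 lowest. The log2 fold change against EV was 2.80 (SE 0.19) for TAZ4SA and -1.66 (SE 0.19) for TAZ-CAMTA1, described with no test. In YAP5SA Fabp5 reached 592, 714 and 606 CPM, the highest of any group, with a range that overlapped only that of TAZ4SA. It rose 9.03-fold over EV (log2 fold change 3.17, SE 0.20, edgeR adjusted p = 1.06e-11). YAP-TFE3, at 68.9, 62.9 and 65.4 CPM, overlapped EV (log2 fold change -0.10, SE 0.18, adjusted p = 0.777) and lay below every YAP5SA library.

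The difference from YAP5SA to YAP-TFE3 had a log2 fold change of -3.28 (SE 0.20, edgeR adjusted p = 9.33e-12), in a comparison that shares no library with those behind the selection. TFE3 libraries, at 57.4, 49.97 and 49.6 CPM, lay just under EV, but the difference missed the threshold (log2 fold change -0.43, SE 0.18, adjusted p = 0.257). Before confluence Fabp5 was higher, at 200, 213 and 136 CPM in EVsub and 205, 199 and 205 CPM in CAMTA1. It rose in EVsub against EV by 1.37 on the log2 scale (SE 0.18, adjusted p = 2.9e-05), whereas CAMTA1 and EVsub overlapped (log2 fold change 0.15, SE 0.18, adjusted p = 0.685).

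**Figure D1:**
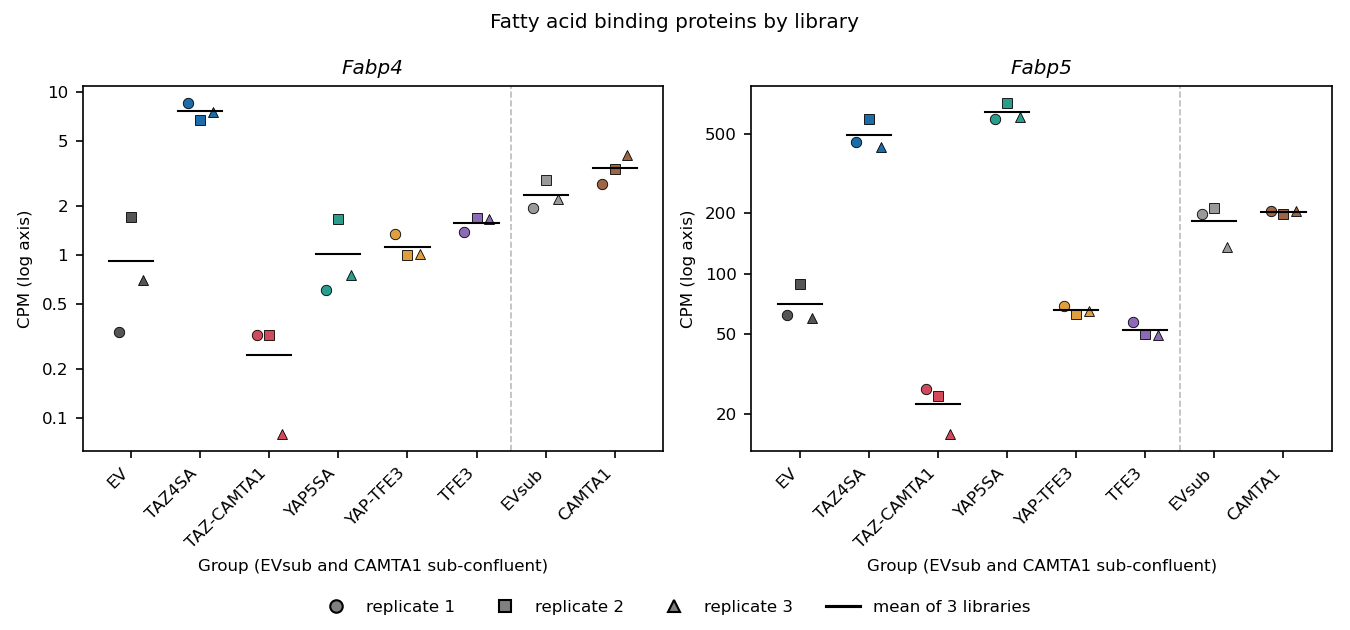
Levels of Fabp4 and Fabp5 in each of the 24 libraries, in CPM on log axes, by group; symbols mark replicates, bars the mean of 3 libraries, and the dashed line sets off the 2 sub-confluent groups. Both genes are lowest in TAZ-CAMTA1 and high in TAZ4SA, while in YAP5SA Fabp5 is at 592 to 714 CPM and Fabp4 at 0.62 to 1.67 CPM.

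The proportion of the 2 carriers varied most in YAP5SA, as a description with no test. The mean of Fabp5 per kilobase of merged exon was 41.6 to 116 times that of Fabp4 in 7 groups and 790 times in YAP5SA. The size of these ratios depends on the lengths used. Their log2 levels had a Pearson r of 0.67 over the 8 group means, a description across groups that share normalization. Neighbouring genes of the cluster were nearly silent. Fabp9 had no count in any library, Fabp12 at most 1, and Pmp2, the myelin fatty acid binding protein, had 11 to 83 counts in TAZ4SA against 1 to 11 in EV, 0 to 2 in TAZ-CAMTA1 and 0 to 3 in YAP5SA.

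The genes whose group means most resembled those of Fabp4, by Pearson r over the 8 groups among 11362 genes averaging 50 counts or more, were Osgepl1 (0.931), Foxs1 (0.931), Pde4b (0.919), Akap7 (0.916) and 1110002L01Rik (0.913). Foxs1, a forkhead transcription factor, had means of 9.62 CPM in TAZ4SA, 1.49 in EV and 0.580 in TAZ-CAMTA1. Pde4b, a cyclic AMP phosphodiesterase, had means of 96.3, 43.9 and 13.5 CPM in the same order. Osgepl1 spanned only 6.21 to 8.10 CPM over the 8 groups, so its likeness is one of order and not of size. The ranking is a description with no test. With 8 group means and 11362 genes compared, values of r this high can arise by chance, and how many would was not tested. The extremes of the Fabp4 profile, TAZ4SA and TAZ-CAMTA1, are also the values that chose the gene set. No shared regulation is read from the list.

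Of the early regulators, Klf4 (ENSMUSG00000003032, chromosome 4, 55527143-55532466, minus strand), a Krüppel-like zinc finger factor, differed most between groups. Its level was 14.2, 18.9 and 16.1 CPM in EV, 92.9, 84.0 and 83.5 CPM in TAZ4SA and 75.5, 82.6 and 77.4 CPM in TAZ-CAMTA1. Both constructs lay far above EV and almost touched each other, with log2 fold changes of 2.40 (SE 0.17) and 2.26 (SE 0.17) against EV and -0.14 (SE 0.16) between them. Klf4 thus lay on the same side of EV in the pair of constructs in which Fabp4 and Fabp5 lay on opposite sides. YAP5SA gave 82.3, 102 and 72.5 CPM and YAP-TFE3 gave 67.1, 49.0 and 53.1 CPM, again above every EV library. Klf4 rose in both, with log2 fold changes of 2.38 (SE 0.17, edgeR adjusted p = 8.39e-11) and 1.78 (SE 0.17, adjusted p = 1.7e-07).

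YAP-TFE3 lay below YAP5SA for Klf4, by a log2 fold change of -0.60 (SE 0.16, edgeR adjusted p = 0.00213). In TFE3 the gene went the other way, to 10.1, 9.24 and 8.16 CPM, under every EV library (log2 fold change -0.84, SE 0.17, adjusted p = 0.0075), although the call was lost without TFE3 replicate 3 (adjusted p = 0.0626). CAMTA1, at 55.0, 58.0 and 46.6 CPM, exceeded every EVsub library, which gave 23.8, 23.2 and 14.5 CPM (log2 fold change 1.37, SE 0.17, adjusted p = 3.69e-05). EVsub and EV overlapped for this gene (log2 fold change 0.32, SE 0.17, adjusted p = 0.181).

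Cebpb (ENSMUSG00000056501, chromosome 2, 167688915-167690418, plus strand), the single-exon gene of C/EBPβ, showed no comparable rise. Its level was 5.23, 4.25 and 4.91 CPM in EV, 6.85, 11.8 and 10.2 CPM in TAZ4SA and 19.9, 4.94 and 5.35 CPM in TAZ-CAMTA1. TAZ4SA libraries lay above EV (log2 fold change 0.99, SE 0.44), and TAZ-CAMTA1 exceeded EV through replicate 1 alone, the log2 fold change of 1.07 (SE 0.44) becoming 0.10 without it. YAP5SA gave 9.70, 10.1 and 5.26 CPM, each above EV, without passing the test (log2 fold change 0.80, SE 0.44, edgeR adjusted p = 0.11). That separation depended on the scaling. With plain library totals YAP5SA replicate 3 was at 4.36 CPM, below EV at 5.53, 4.45 and 5.10 CPM. YAP-TFE3 gave 4.36, 3.05 and 5.18 CPM and fell below YAP5SA by 1.00 on the log2 scale (SE 0.45, adjusted p = 0.049). That call was lost in 7 of 12 alternative settings, among them without YAP5SA replicate 1 (0.125) or 2 (0.141) and without YAP-TFE3 replicate 1 (0.0907) or 2 (0.163). TFE3, EVsub and CAMTA1 libraries lay between 3.21 and 10.5 CPM, and their tests, like that of YAP-TFE3 against EV, did not pass (adjusted p from 0.57 to 0.94). Tmem189 lies over Cebpb on the opposite strand.

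Cebpd (ENSMUSG00000071637, chromosome 16, 15887286-15891031, plus strand), the gene of C/EBPδ, was the most abundant of the 3 C/EBP members per kilobase, with 12.4 ± 4.35 RPKM in EV against 3.19 ± 0.334 RPKM for Cebpb. Its level was 32.3, 64.2 and 42.4 CPM in EV, 20.5, 50.6 and 40.4 CPM in TAZ4SA and 43.4, 34.9 and 33.0 CPM in TAZ-CAMTA1, overlapping throughout. The lowest group was TFE3, at 24.8, 25.2 and 22.0 CPM, below every EV library, but the difference missed the threshold (log2 fold change -0.95, SE 0.32, edgeR adjusted p = 0.12). No Cebpd comparison passed in the main fit, the adjusted p-values ranging from 0.105 to 0.587, and the spread was wide within most groups but not TFE3 (SD 1.78 CPM). The TFE3 difference from EV was called with no filter (log2 fold change -0.94, edgeR adjusted p = 0.00253). It was also called with only those 2 groups fitted (-0.93, adjusted p = 0.0255). In YAP5SA (39.0, 25.9 and 27.8 CPM) the log2 fold change against EV was -0.58 (SE 0.32, adjusted p = 0.105), or -0.78 (adjusted p = 0.0453) without EV replicate 1. The YAP-TFE3, EVsub and CAMTA1 libraries spanned 30.3 to 44.0, 23.5 to 47.6 and 26.8 to 57.0 CPM. Spidr overlaps Cebpd on the opposite strand.

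**Figure D2:**
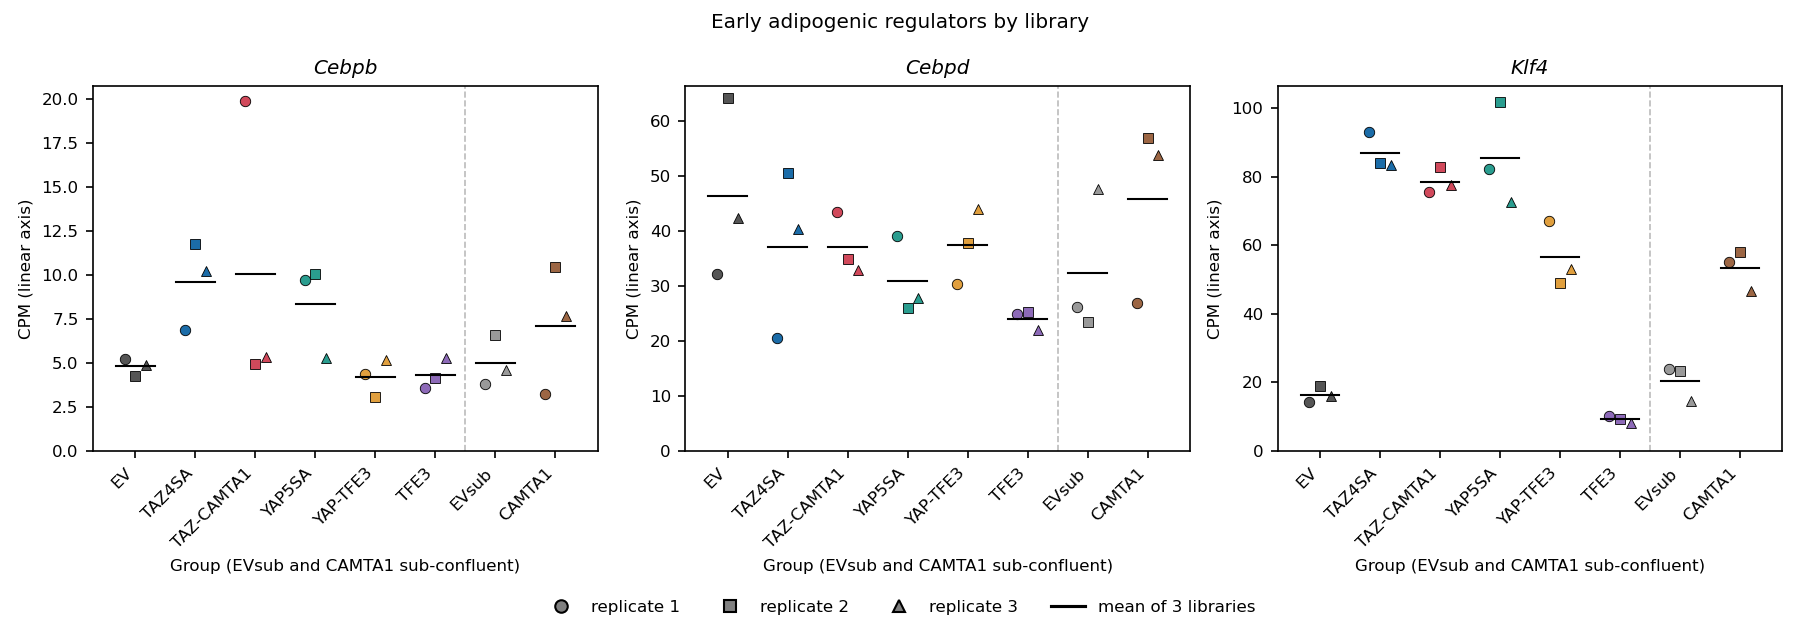
Levels of Cebpb, Cebpd and Klf4 in each library, in CPM on linear axes from 0, by group; symbols mark replicates and bars the mean of 3 libraries. Klf4 is at 49.0 to 102 CPM in the 4 TAZ and YAP constructs against 14.2 to 18.9 in EV, and a single TAZ-CAMTA1 library at 19.9 CPM stands apart for Cebpb.

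Of the storage genes, Plin2 (ENSMUSG00000028494, chromosome 4, 86648386-86670060, minus strand) encodes a coat protein of lipid droplets found in most cells. Its level was 241, 180 and 224 CPM in EV, 360, 468 and 255 CPM in TAZ4SA and 185, 192 and 178 CPM in TAZ-CAMTA1. TAZ4SA lay above both other groups in every library (log2 fold change against EV 0.75, SE 0.17), and TAZ-CAMTA1 overlapped EV (log2 fold change -0.22, SE 0.17). Plin2 was highest in YAP5SA, at 504, 410 and 487 CPM, where it rose over EV by 1.12 on the log2 scale (SE 0.17, edgeR adjusted p = 4.07e-06). YAP-TFE3, at 228, 201 and 231 CPM, was close to EV (log2 fold change 0.03, SE 0.17, adjusted p = 0.939) and fell 1.09 below YAP5SA on the log2 scale (SE 0.17, adjusted p = 5.96e-06). YAP5SA and TAZ4SA, the groups highest in Plin2 and Fabp5, were also those with the highest sums of the macrophage markers, whose part in both genes was not tested.

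TFE3 gave 311, 316 and 313 CPM for Plin2, each above EV, with a log2 fold change of 0.54 (SE 0.17) whose adjusted p was 0.0835 with edgeR and 0.0319 with DESeq2. EVsub (164, 191 and 171 CPM) and CAMTA1 (260, 195 and 172 CPM) overlapped each other and EV. Their log2 fold changes were -0.29 (SE 0.17, EVsub against EV, edgeR adjusted p = 0.224) and 0.25 (SE 0.17, CAMTA1 against EVsub, adjusted p = 0.431).

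Lpl (ENSMUSG00000015568, chromosome 8, 68880491-68907448, plus strand) encodes the secreted lipase that frees fatty acids from lipoproteins. Its level was 173, 848 and 251 CPM in EV, 491, 454 and 430 CPM in TAZ-CAMTA1 and 290, 291 and 235 CPM in TAZ4SA. TAZ-CAMTA1 lay above TAZ4SA in every library (log2 fold change 0.75, SE 0.39), and both lay within the range of EV. The EV mean rested on replicate 2. The log2 fold change against EV was 0.11 (SE 0.38) in TAZ-CAMTA1 and -0.64 (SE 0.39) in TAZ4SA, and without that library it was 1.11 and 0.36.

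Lpl in YAP5SA, at 306, 469 and 289 CPM, did not pass against EV (log2 fold change -0.26, SE 0.38, edgeR adjusted p = 0.555). Without EV replicate 2 the direction turned and the test passed (log2 fold change 0.74, adjusted p = 0.0268). YAP-TFE3 (395, 213 and 273 CPM) and TFE3 (266, 254 and 265 CPM) also lay within the EV range, with log2 fold changes of -0.53 and -0.70 that turned to 0.47 and 0.30 without that library and passed in neither case. YAP-TFE3 and YAP5SA overlapped (log2 fold change -0.27, SE 0.38, adjusted p = 0.537). The clearest Lpl difference was with confluence. EVsub gave 55.6, 77.9 and 136 CPM, under every EV library, and fell by 2.24 on the log2 scale (SE 0.40, adjusted p = 0.000429), or by 1.24 without EV replicate 2 (adjusted p = 0.00299). CAMTA1, at 103, 84.0 and 100 CPM, overlapped EVsub (log2 fold change 0.09, SE 0.39, adjusted p = 0.922).

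**Figure D3:**
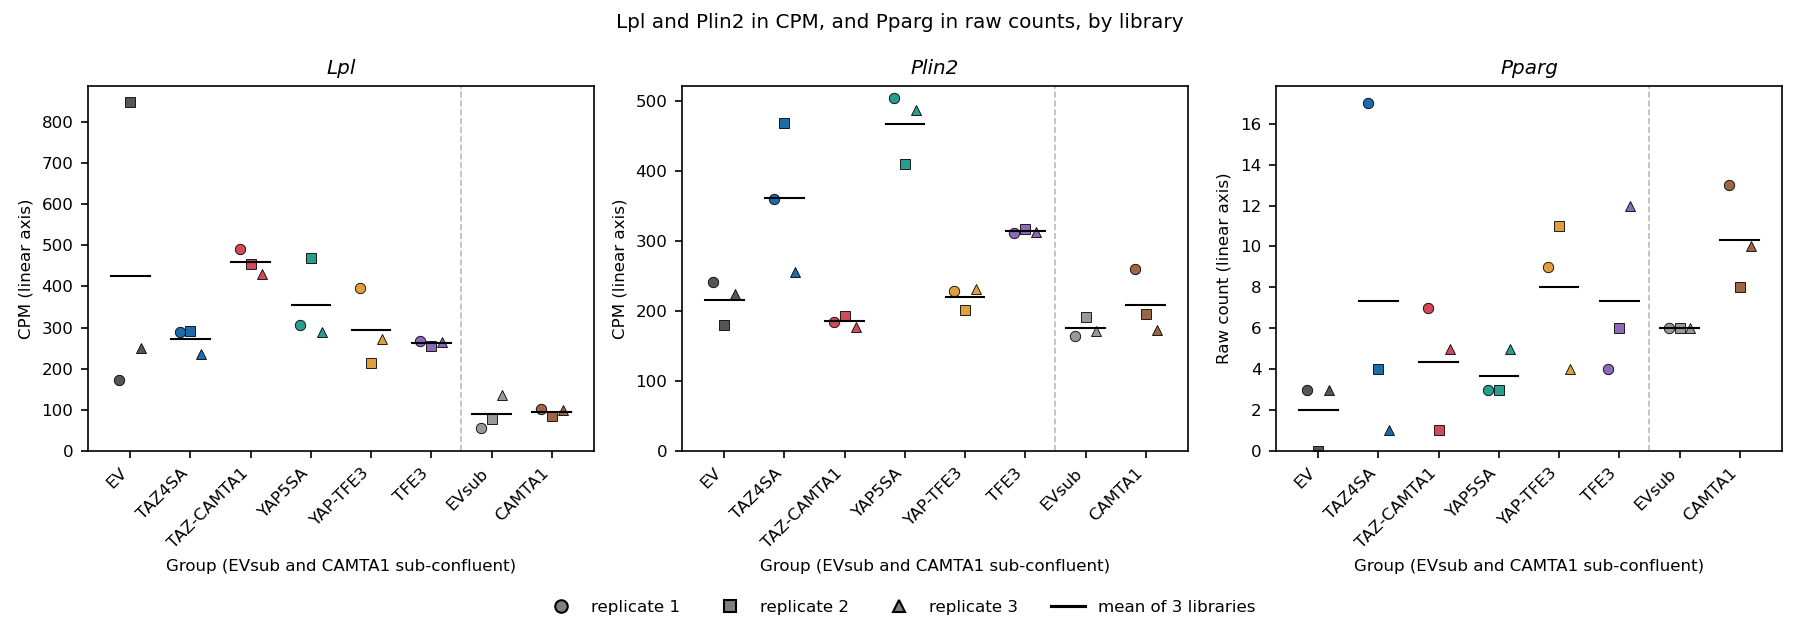
Levels of Lpl and Plin2 in CPM, and raw counts of Pparg, in each library by group on linear axes from 0; symbols mark replicates and bars the mean of 3 libraries. EV replicate 2 stands at 848 CPM for Lpl, both sub-confluent groups lie at 55.6 to 136 CPM, and Pparg stays at 17 counts or fewer.

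Counted over the set, 3 of the 10 genes were called higher in YAP5SA against EV (Fabp5, Plin2 and Klf4) and 0 lower, with 0 lower also at an unadjusted p under 0.05 and by DESeq2. In that comparison 36.3% of all 14361 genes tested were called higher and 34.9% lower. With 8 of the 10 genes tested, the 3 higher stand near that background. The 0 lower stand under it, a difference that was not tested. YAP-TFE3 against YAP5SA, which had 36.4% of genes higher and 34.5% lower, gave 4 lower (Fabp5, Cebpb, Plin2 and Klf4) and 0 higher, again 0 at an unadjusted p under 0.05 and by DESeq2. YAP-TFE3 against EV gave Klf4 alone, higher, on a background of 10.6% higher and 4.74% lower, and 0 lower at an unadjusted p under 0.05 and by DESeq2. TFE3 against EV gave Klf4 alone, lower, on 2.36% higher and 1.02% lower, and 0 higher against 1 at an unadjusted p under 0.05 and 1 by DESeq2. EVsub against EV gave Fabp4 and Fabp5 higher and Lpl lower on 12.5% higher and 9.59% lower, and CAMTA1 against EVsub gave Klf4 higher on 1.29% higher and 0.891% lower, with 0 lower at an unadjusted p under 0.05 and by DESeq2.

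In the comparisons behind the selection nothing is read from the counts. Against EV, 5 of the 10 genes (Fabp4, Fabp5, Cebpb, Plin2 and Klf4) had all 3 TAZ4SA libraries above and 0 had all below, where 29.8% and 26.2% of all genes did. For TAZ-CAMTA1, Klf4 was above and Fabp4 and Fabp5 were below, where 23.1% and 22.4% of all genes were. Between TAZ-CAMTA1 and TAZ4SA, Lpl was above and Fabp4, Fabp5, Plin2 and Klf4 were below, where 27.8% and 27.4% of all genes were.

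**Figure D4:**
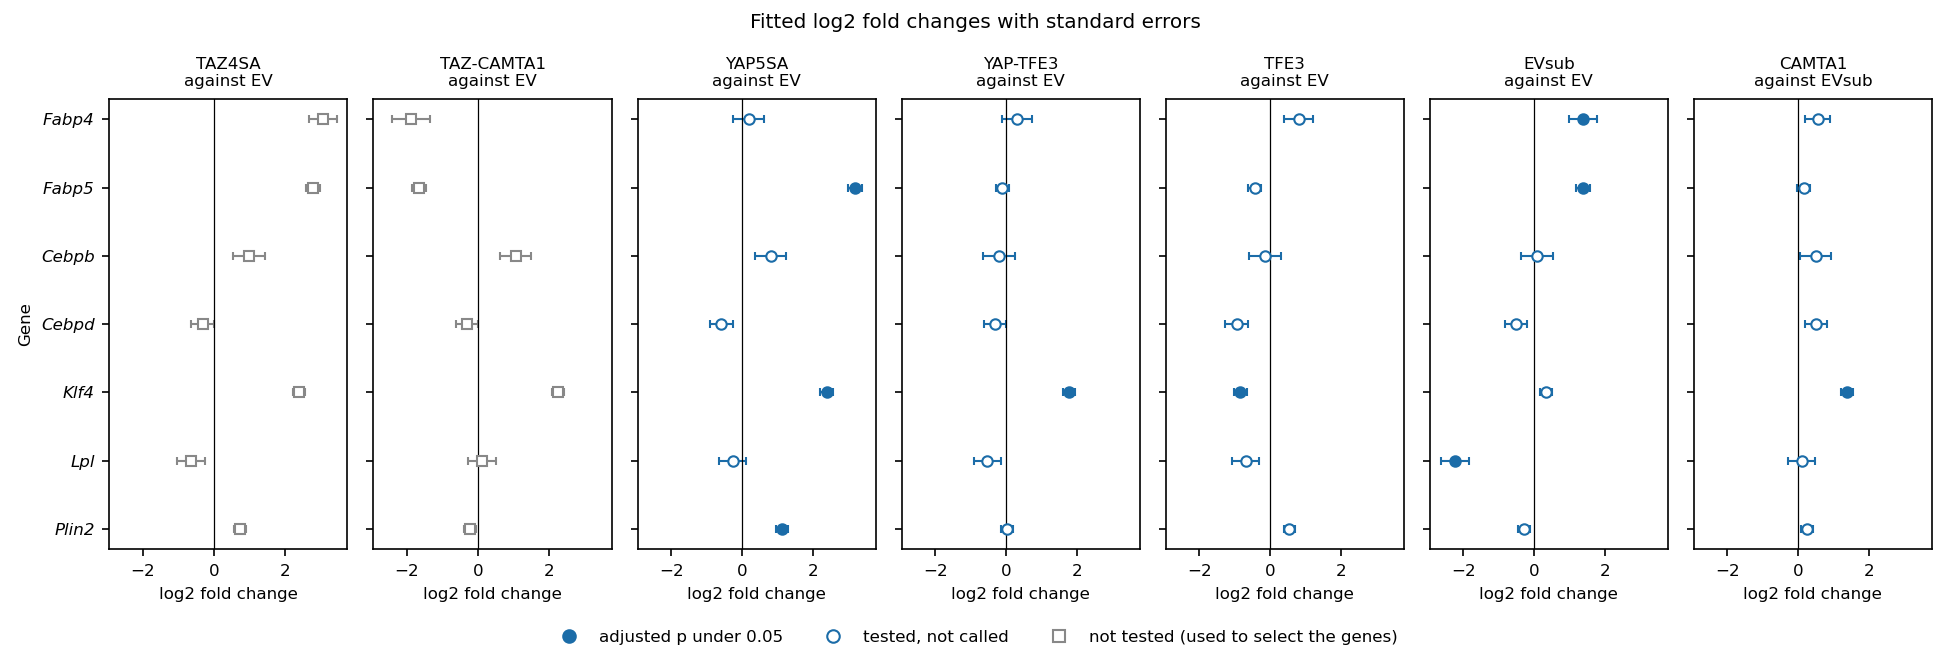
Fitted log2 fold changes of 7 genes in 7 comparisons, with bars of 1 standard error; filled circles passed the test, open circles did not, and grey squares were not tested because those comparisons chose the genes. Klf4 lies to the right of 0 in all 4 TAZ and YAP constructs, and Fabp4 and Fabp5 lie on opposite sides for TAZ4SA and TAZ-CAMTA1.

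Around these genes, 7 lists of 96 other genes of adipogenesis and lipid metabolism were examined, of which 78 were tested. They were not part of the selection and are tested in all comparisons, although they too were drawn up with earlier results of these data known. YAP5SA against EV had 31 higher and 35 lower (36.3% and 34.9% of all genes), TAZ4SA against EV 26 and 25 (31.1% and 26.4% of all genes) and TAZ-CAMTA1 against EV 8 and 15 (12.5% and 8.98% of all genes). The median log2 fold change of the 78 was -0.12, 0.03 and -0.12 in that order, beside 0.01, 0.05 and -0.0041 over all genes. TAZ-CAMTA1 against TAZ4SA had 23 higher and 28 lower, on 26.6% and 28.1%.

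Among tested genes for breaking down stored triglyceride, 4 of 5 rose against EV in YAP5SA and 4 of 5 in TAZ4SA, where 36.3% and 31.1% of all genes did. The median log2 fold change was 1.04 and 0.89 beside 0.01 and 0.05 over all genes. Of the 4 in TAZ4SA, Mgll had means of 0.835 CPM there and 0.0729 CPM in EV. That EV mean is under the limit of 0.0927 to 0.225 CPM, so no fold is given for it. Pnpla2, the first lipase of the droplet, was 19.6 ± 2.08 CPM in EV, 139 ± 11.8 in YAP5SA and 74.9 ± 24.1 in TAZ4SA (log2 fold changes 2.83, SE 0.18, and 1.93, SE 0.18, edgeR adjusted p = 1.95e-11 and 1.14e-08). Abhd5, its coactivator, rose in YAP5SA by 1.04 (SE 0.14, adjusted p = 5.91e-07), and Lipe, hormone-sensitive lipase, rose in TAZ4SA by 0.89 (SE 0.17, adjusted p = 0.000115). In TAZ-CAMTA1 the list's only call was Pnpla2, higher by 0.63 (SE 0.18, adjusted p = 0.0125), a call lost without EV replicate 1 (0.071) or TAZ-CAMTA1 replicate 2 (0.0542). In TAZ-CAMTA1 against TAZ4SA 4 of the 5 were called lower, where 28.1% of all genes were.

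The droplet and synthesis lists were mixed. Fitm2, which partitions triglyceride into droplets, rose in YAP5SA by 2.32 (SE 0.16) and in TAZ4SA by 1.28 (SE 0.15), with edgeR adjusted p-values of 3.67e-11 and 4.41e-07, and Bscl2, which encodes seipin, rose by 1.56 and 1.81. Dgat2, an enzyme of the last step of triglyceride synthesis, rose by 2.61 in YAP5SA, 2.45 in TAZ4SA and 1.74 in YAP-TFE3 (adjusted p = 5.34e-08, 3.72e-07 and 0.000196). Gpat3, an enzyme of the first step, was the largest call of these lists in TAZ-CAMTA1, from 2.56 ± 0.482 to 20.9 ± 4.18 CPM (log2 fold change 3.03, SE 0.22, adjusted p = 5e-09). It also rose in TAZ4SA by 1.96, in YAP5SA by 1.48 and in YAP-TFE3 by 1.46 (edgeR adjusted p = 1.82e-07, 4e-06 and 6.22e-05). In CAMTA1 against EVsub Gpat3 rose by 1.18 (SE 0.21, adjusted p = 0.00472, but 0.0525 without EVsub replicate 2 and 0.107 when EVsub and CAMTA1 were fitted alone). Lpin2, a phosphatidate phosphatase, fell in YAP5SA by 1.55 on the log2 scale (adjusted p = 1.38e-10) and Lpin1 fell in TAZ-CAMTA1 by 1.06 (adjusted p = 0.00208). Hsd17b11, a droplet protein, fell by 0.53 in TAZ-CAMTA1 and by 0.92 in TAZ4SA (edgeR adjusted p = 0.00408 and 3.58e-06).

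Regulators moved both ways as well. Among 15 tested activators of adipogenesis, 4 were higher and 8 lower in YAP5SA, 4 and 5 in TAZ4SA, and in TAZ-CAMTA1 the 3 calls were all lower. Of all genes, 36.3% and 34.9%, 31.1% and 26.4%, and 12.5% and 8.98% were called higher and lower in that order, so the 4 higher in YAP5SA and TAZ4SA do not stand out from the background. Klf5 rose from 6.82 ± 2.22 CPM in EV to 92.3 ± 5.44 in YAP5SA and 48.5 ± 13.6 in TAZ4SA (log2 fold changes 3.76 and 2.83, edgeR adjusted p = 5.54e-12 and 7.55e-10). Egr2 (Krox20), which acts upstream of C/EBPβ, had 916 counts in the EV libraries together and 5 in YAP5SA, a ratio of 152 with an exact interval of 64.7 to 468 (95%) that covers counting error only and not the spread between replicates. The test of Egr2 across replicates passed there (edgeR adjusted p = 4.04e-11). Egr2 also fell by 4.98 on the log2 scale in TAZ4SA and by 1.60 in TAZ-CAMTA1 (adjusted p = 9.1e-10 and 0.000242). Klf9 fell in TAZ-CAMTA1 by 0.60, in YAP5SA by 0.97 and in EVsub by 0.91, each against EV (edgeR adjusted p = 0.00277, 1.76e-06 and 8.47e-05).

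Of 17 repressors, 5 were higher and 10 lower in YAP5SA, 5 and 7 in TAZ4SA, and 2 and 2 in TAZ-CAMTA1. Beside the same shares of all genes, the higher counts lay near the background in all 3. Gata3 rose by 4.22 in YAP5SA and 4.14 in TAZ4SA (edgeR adjusted p = 2.63e-10 and 1.34e-09). Hes1, a Notch target, rose by 3.37 in TAZ4SA, 2.97 in YAP5SA and 2.68 in YAP-TFE3 (adjusted p = 1.44e-05, 3.54e-05 and 0.00103). Sox9 fell in YAP5SA from 128 ± 23.2 to 3.40 ± 0.429 CPM (log2 fold change -5.23, SE 0.30, adjusted p = 2.85e-12). It also fell in TAZ4SA by 2.20 and in TAZ-CAMTA1 by 1.37 (edgeR adjusted p = 1.48e-07 and 0.000187). Trib3 rose in TAZ4SA by 2.98, in TAZ-CAMTA1 by 1.94 and in YAP5SA by 1.81 (edgeR adjusted p = 2.88e-07, 0.000213 and 5.91e-05). Dlk1, the preadipocyte factor, fell in YAP5SA by 2.25 and in TAZ4SA by 1.84 (edgeR adjusted p = 1e-05 and 0.000161). In CAMTA1 against EVsub Dlk1 fell by 1.76 (SE 0.36, adjusted p = 0.0105), a call lost without EVsub replicate 2 (0.0982) or CAMTA1 replicate 1 (0.0545) and when both groups were fitted alone (0.16).

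In the uptake and oxidation lists, Angptl4, an inhibitor of the Lpl enzyme, fell in YAP5SA by 3.90 (SE 0.37, edgeR adjusted p = 5.83e-09) and in TFE3 by 1.48 (SE 0.30, adjusted p = 0.00651, but 0.059 without EV replicate 2 and 0.0618 without TFE3 replicate 3), and rose in EVsub by 1.73 (SE 0.29, adjusted p = 0.000199), where Lpl fell. Slc27a1, a fatty acid transporter, fell in YAP5SA by 2.09 (adjusted p = 2.43e-08), in YAP-TFE3 by 1.09 (0.000761) and in EVsub by 1.18 (0.000413). Dbi, which binds acyl-CoA, fell in TAZ4SA by 1.81 (adjusted p = 3.55e-10). Vldlr rose in TAZ4SA by 1.62 and in TAZ-CAMTA1 by 1.40 (adjusted p = 8.04e-05 and 0.00148), and Acsl5 rose in TAZ-CAMTA1 by 0.84 (adjusted p = 0.00298). Pdk4 and Ucp2 fell in all 4 TAZ and YAP constructs. In YAP5SA the falls were 1.84 and 2.10 (adjusted p = 3.32e-06 and 4.02e-09), in TAZ4SA 0.85 and 0.86 (0.00898 and 0.00045), in TAZ-CAMTA1 1.29 and 1.16 (0.0013 and 9.14e-05) and in YAP-TFE3 1.07 and 0.81 (0.00752 and 0.00332). For Pdk4 the call was lost in TAZ4SA without EV replicate 1 (0.0531) or TAZ4SA replicate 3 (0.0511) and when only TAZ4SA and EV were fitted (0.0538). In YAP-TFE3 it was lost without EV replicate 1 (0.0501).

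The remaining comparisons against a control called fewer genes than YAP5SA or TAZ4SA, in the lists as over all genes. Of the 78, YAP-TFE3 against EV called 13 higher and 9 lower (10.6% and 4.74% of all genes) and EVsub against EV 7 and 13 (12.5% and 9.59%). CAMTA1 against EVsub called 3 and 1 (1.29% and 0.891%), and TFE3 against EV 1 and 2 (2.36% and 1.02%). In TFE3 the calls were Acsl1, higher by 0.52 (SE 0.11, edgeR adjusted p = 0.0103), Angptl4, given above, and Trib2, which fell by 0.69 on the log2 scale (adjusted p = 0.0306). The Acsl1 call was lost without EV replicate 1 (0.0691) or TFE3 replicate 3 (0.0506), and that of Trib2 without any 1 of the 6 libraries (0.0727 to 0.123). Trib2 fell more in YAP5SA and TAZ4SA against EV, by 1.47 and 1.51 (edgeR adjusted p = 2.56e-07 and 4.48e-07). In EVsub, Trib3 rose by 1.74 (SE 0.34, adjusted p = 0.000827) and Ebf1 fell by 1.09 (0.000129). Ebf1 fell more in YAP5SA and TAZ4SA against EV, by 2.95 and 2.41 (edgeR adjusted p = 1.48e-11 and 6.82e-10). YAP-TFE3 against YAP5SA called 35 higher and 26 lower, where 36.4% and 34.5% of all genes were called. Klf5 and Pnpla2 fell there by 3.87 and 2.51 (adjusted p = 5.45e-12 and 1.11e-10), and Sox9 and Angptl4 rose by 3.85 and 4.63 (1.77e-10 and 5.87e-10).

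**Figure D5:**
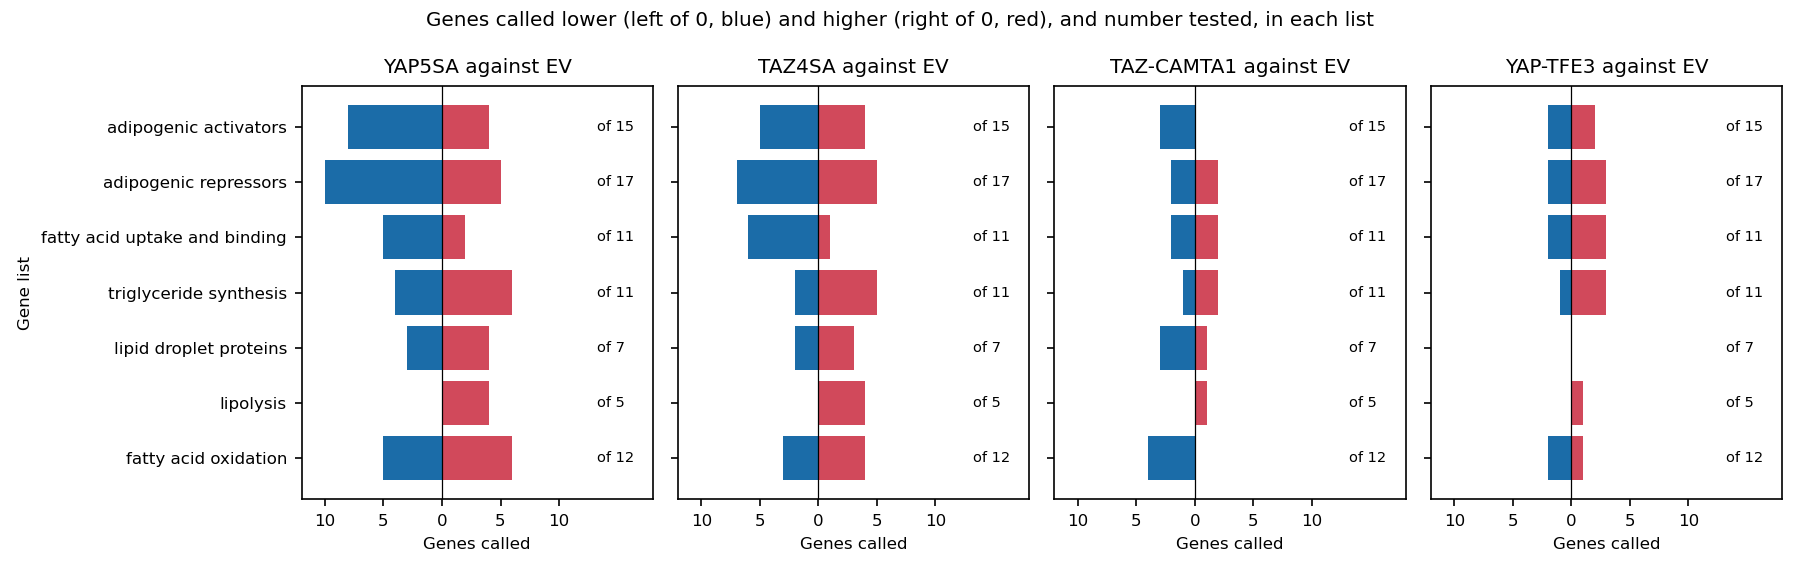
Numbers of genes called higher (right of 0) and lower (left of 0) in each of 7 lists for 4 comparisons against EV, with the number tested beside each bar. Lipolysis has 4 of 5 called, all higher, in YAP5SA and TAZ4SA and 1 in TAZ-CAMTA1 and YAP-TFE3. Of all genes, 36.3%, 31.1%, 12.5% and 10.6% were called higher in that order.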

How the data were processed

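The authors deposited 1 table per library of raw counts, whole numbers of reads per Ensembl gene identifier, with no normalization. Per the study's methods, libraries were stranded and polyA-selected, read as 75 bp pairs on a HiSeq 4000 and aligned to mm10 with Hisat2 under bcbio-nextgen 1.0.8 with Ensembl release 97. The methods also give gene-level counts from Salmon through tximport. Those estimates need not be whole, the deposited values are whole numbers, and no source used here ties the deposited tables to either route or gives a strand setting, which bears on genes with an antisense neighbour. Replicates were separate transductions, per the methods. Groups and replicate numbers came from the titles. For YAP-TFE3 replicate 3 the description names replicate 2, and the title was used.

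Counts were fitted with edgeR 4.0.16 (R 4.3.3): TMM scaling, all 24 libraries in 1 quasi-likelihood fit, the 14361 genes averaging 5 counts or more, Benjamini-Hochberg adjustment over all of them, and a call at an adjusted p under 0.05. SE is the log2 fold change divided by the square root of F. CPM uses TMM-scaled totals, and RPKM divides it by merged exon length from GENCODE M21 (mm10), which also gave symbols for 37607 identifiers and coordinates. Log2 CPM for group means had a prior of 2 counts. The fit was tested on simulated data for YAP5SA against EV, with 200 of 14361 genes changed. It recovered 69.5% of them at a log2 change of 1 and 88.5% at 2, with 6 and 5 false calls. Far more genes were called in the real comparison, so the simulation did not test the scaling under such broad change. Replicate libraries differed by more than sampling noise in all 24 pairs within groups (chi-square per degree of freedom 5.49 to 112).

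The members and lists were chosen with earlier results of these data known. Text names the members, the neighbours Fabp9, Fabp12 and Pmp2, the 5 genes most like Fabp4, and genes among the 2 largest called changes (mean of at least 50 counts) in each list and comparison. Mgll is named besides for its low EV level. Marker genes were named after their values were seen. Alternatives were DESeq2 1.42.0, DESeq2 size factors, no filter, at least 10 counts in every library, a replicate block, only the compared groups, plain totals for levels, and each library left out.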

Additional observations from a re-analysis of the deposited data

How the results depend on the processing

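For the members, 539 tested values under an alternative kept their side of the threshold and their direction where called, 11 gained a call, 12 lost it and 1 reversed: Lpl in YAP5SA against EV, 0.74 without EV replicate 2 against -0.26, and -0.63 to 0.74 over the libraries left out. For the described comparisons 275 values moved by less than the spread between libraries and 7 by more. Members called in YAP5SA against EV numbered 5 with no filter and 5 with only the groups compared, in place of 3 (Cebpb and Cebpd were added). In TFE3 against EV they numbered 2 with DESeq2, 3 with no filter and 3 with only the groups compared, in place of 1, and 0 to 1 with a library left out (0 without TFE3 replicate 3, with 3 at an unadjusted p under 0.05). The lists' calls in TFE3 against EV were 5 with DESeq2, 12 with only the groups compared and 0 to 2 with a library left out, in place of 3, the 0 again without TFE3 replicate 3 (edgeR, 11 at an unadjusted p under 0.05). In CAMTA1 against EVsub they were 8 with DESeq2, 7 with no filter, 0 with only the groups compared (edgeR, 22 at an unadjusted p under 0.05) and 1 to 6 with a library left out, in place of 4. With a library left out they were 12 to 24 in YAP-TFE3 against EV (22, the lowest without YAP-TFE3 replicate 1) and 12 to 20 in EVsub against EV (20, 12 without EV replicate 1 or EVsub replicate 2). The cause of these shifts was not tested. Of 98 named values of the lists, 21 lost the call under at least 1 alternative and 0 reversed, Ppargc1a in 8 settings being the most. Replicate numbers did not pair the libraries: correlations of same-numbered deviations ran from -0.153 to 0.41 and no comparison had every pair above 0.1. The replicate block took the members called in YAP-TFE3 against YAP5SA from 4 to 3 (Cebpb, adjusted p = 0.0659) and changed no other member's call. A count near 0, as for Pparg, Cebpa and Cd36, limits what this depth can show.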
